A study of Mus musculus with 2 samples.

Results

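The basement membrane genes described here are *Col4a1* and *Col4a2* (collagen IV), *Lama2*, *Lama4*, *Lama5*, *Lamb1* and *Lamc1* (laminins), *Nid1* and *Nid2* (nidogens) and *Hspg2* (perlecan). They were chosen by gene symbol, and every ATAC-seq peak that the deposited annotation assigns to one of these symbols was taken. This gave 75 of 63316 peaks. Of the 10 genes, 9 had at least 1 peak, among 16934 genes with a peak in the whole table. No peak was assigned to *Lama5*.

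The chromatin came from primary murine cardiac fibroblasts, the cells that deposit extracellular matrix in the heart. In the library NC the cells had received scrambled siRNA, and in the library SiPiezo2 an siRNA against Piezo2, a mechanosensitive ion channel. Both received TGF-β (5 ng/ml) over 24 h, so there is no unstimulated group in this comparison. Each condition had 1 library, which leaves every difference without a replicate check and without a test. The labels do not give the strain, age or number of mice, and the assay does not measure how far the siRNA lowered Piezo2.

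A basement membrane is a thin sheet of matrix that surrounds or underlies cells. Laminin trimers, each made of an α, a β and a γ chain, polymerize at the cell surface, collagen IV forms a second network, and nidogens and the heparan sulfate proteoglycan perlecan join these networks. In the heart such sheets surround cardiomyocytes and capillaries, and fibroblasts are among the cells that make their components.

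In ATAC-seq a transposase cuts open DNA and tags it, so that more reads over a region mean more accessible chromatin. Values are read densities, that is, normalized reads per kb in a window of 2000 bp around each peak. A difference is given as log2((SiPiezo2 + 1)/(NC + 1)), where 1 is a pseudocount. Its 95% interval is an exact binomial (Clopper-Pearson) interval of the recovered reads and covers counting error only. Where windows overlap, the reads they share enter a sum over peaks more than once. The intervals of such sums do not allow for this and are too narrow. A widened interval, with 2.32 times the counting variance, allows for the spread seen at peaks called in both libraries. A difference past 1.5-fold means a ratio below 0.66 or above 1.5.

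The windows of all peaks held 4615335 reads in NC and 2754046 in SiPiezo2. Windows of the basement membrane peaks held between 29 and 227 reads in NC (median 89) and between 15 and 153 in SiPiezo2 (median 48). Of 10 fibroblast marker genes, 9 had a peak, *Lum* being without, and the same number had one within 1 kb of a start site. Their summed density was 1253 in NC and 1150 in SiPiezo2. Of 7 cardiomyocyte markers 3 had a peak (*Tnnt2*, *Ryr2* and *Actn2*, 146 against 152), and *Myh6*, *Myh7*, *Pln* and *Tnni3* had none. *Tie1* and *Egfl7* of the endothelial, *Kcnj8* and *Mcam* of the mural and *Adgre1* and *Cd68* of the macrophage list had none either. Peaks were present at the endothelial *Pecam1*, *Cdh5*, *Kdr*, *Tek*, *Vwf* and *Emcn*. The mural *Cspg4*, *Rgs5*, *Myh11*, *Abcc9* and *Notch3* and the macrophage *Ptprc*, *Csf1r* and *Itgam* also had peaks. A peak within 1 kb of a start site was found for 1 cardiomyocyte, 1 endothelial, 2 mural and 3 epicardial and mesothelial markers. The summed density of 6 of 8 endothelial markers was 494 against 532, that of 5 of 7 mural cell markers 479 against 397, that of 3 of 5 macrophage markers 183 against 151, and that of 5 of 5 epicardial and mesothelial markers 121 against 129. The medians of the gene differences were -0.16 for fibroblast, 0.057 for endothelial, -0.23 for mural, 0.0036 for cardiomyocyte, -0.25 for macrophage and 0.56 for epicardial markers. In the epicardial list *Upk3b*, *Krt19* and *Muc16* were above 0 (0.56, 0.68 and 1.33), each at 1 peak with few reads. *Wt1* (-0.61) and *Msln* (-0.23) were below 0, and the summed density of that list gave 0.093. The part of other cell types in the differences below was not tested.

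The sequence at the collagen IV start sites is shown first, because both genes share it. *Col4a1* and *Col4a2* encode the α1 and α2 chains of the same trimer and lie head to head on chromosome 8, so that 22 bp belong to both transcripts. It was taken from RefSeq on GRCm38.p6, chr8:11312801-11312830, plus strand, and the capitals mark the bases common to the 5′ ends of both genes. The peak positions below follow the deposited table, whose gene coordinates are those of GRCm39.
Col4a1/Col4a2 starts: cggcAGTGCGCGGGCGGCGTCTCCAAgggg

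The stretch upstream of *Hspg2* is shown next, because this was the member with the lowest ratio of SiPiezo2 to NC and yet had no peak within 3 kb of its start. It covers GRCm38.p6 chr4:137468553-137468750, plus strand, and ends 52 bases before the RefSeq start, which lies 34 bp from the start of the transcript in the table. The capitals mark 5 matches to GGGCGG, the letters recognised by SP1.
Hspg2 upstream: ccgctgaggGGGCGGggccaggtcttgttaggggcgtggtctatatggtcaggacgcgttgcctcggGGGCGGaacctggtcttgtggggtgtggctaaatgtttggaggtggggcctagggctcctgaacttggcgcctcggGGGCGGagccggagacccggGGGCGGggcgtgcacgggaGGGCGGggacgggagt

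Windows of 250 bases upstream of the start were at hand for 7 of the 10 genes, *Lama4*, *Lamc1* and *Nid2* being without an entry. Both strands were searched. GGGCGG (SP1) occurred in 5 of 7 windows against 32.7% of all 32851 windows. CAGAC (SMAD) occurred in 4 of 7 against 42.2%. GGAATG (TEAD) was found for *Nid1* alone, against 12.6% of all windows. TGANTCA (AP-1) was in 0 of 7 against 6.75%. The SRF motif named CArG was found for *Lama2* alone, 39 bases before the start, against 1.47% of all windows. The 7 windows had a GC content between 47.2% and 74.4%, and the median over all windows was 52.4%. Only *Lama2*, at 47.2%, lay below this median, and the others had 62% or more. The shares over all windows were not matched for GC content. Exons of the same or another gene cover all 250 bases of the *Col4a1*, *Col4a2* and *Lama5* windows and 249 of that of *Lama2*, which holds the CArG match. They cover 121 bases for *Lamb1*, 52 for *Hspg2* and 0 for *Nid1*. The RefSeq starts of *Lama2* and *Nid1* are not starts of an Ensembl transcript, and a match in letters does not show a bound site.

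Across the basement membrane genes as a whole, accessibility in the SiPiezo2 library was slightly below that in NC, and most of this difference lay at 1 gene, *Hspg2*. Summed over the 75 peaks the density was 2906 in NC and 2668 in SiPiezo2, a difference of -0.12 (95% interval -0.18 to -0.068, widened -0.21 to -0.039). Without *Hspg2*, left out because its value was the lowest, it was -0.037 (-0.097 to 0.024, widened -0.13 to 0.055). With the recovered reads scaled to the median ratio of all peaks these values were -0.096 and -0.0024, and with equal totals -0.059 and 0.035.

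The median difference over single peaks was -0.21 for the basement membrane genes and -0.13 for all peaks of the table, with 66.7% and 63.7% of peaks below 0. Past 1.5-fold, 9 of the 75 peaks (12%) were lower, where 13.5% of all peaks were, and 3 (4%) were higher, where 3.21% were, so that both shares were near the background. The interval lay below 0 at 11 of the 75 peaks and above 0 at 6, against 11.4% and 3.63% of all peaks, whose windows held fewer reads (median 58 in NC and 36 in SiPiezo2). Of the 9 lower peaks, 5 belonged to *Hspg2*. The other 65 peaks held 4. The basement membrane peaks were denser than the table at large, with a median of 33.7 over both libraries against 23.3.

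**Figure D1:**
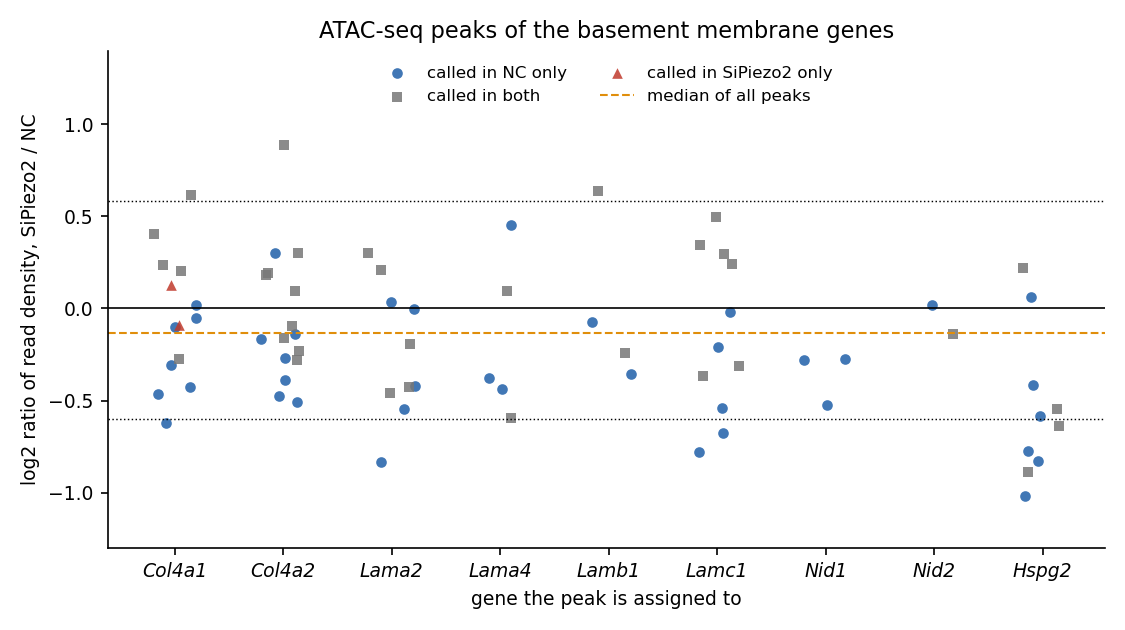
Each point is 1 of the 75 peaks, placed by its gene on the x axis and by its log2 ratio of read density, SiPiezo2 over NC, on the y axis; colour and shape give the library in which the peak was called. Dotted lines mark the 1.5-fold limits and the dashed line the median of all 63316 peaks (-0.13). Most *Hspg2* points lie low in the plot, while the peaks of *Col4a1*, *Col4a2* and *Lamc1* fall on both sides of 0.

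Per gene, 7 of the 9 values were below 0 and 2 above. The median was -0.082, against -0.093 for all genes, of which 62.6% were below 0. Both medians turned positive with equal totals, at 0.018 and 0.043, and with the strongest peak of each gene only they were 0.094 and -0.062. Median-of-ratios scaling gave -0.019 and 0.0072. No gene was past 1.5-fold in either direction, where 6.21% of all genes were lower and 1.54% higher. The counting interval lay below 0 for *Hspg2* and *Lama2* and above 0 for no gene, against 15.2% and 4.37% of all genes.

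**Figure D2:**
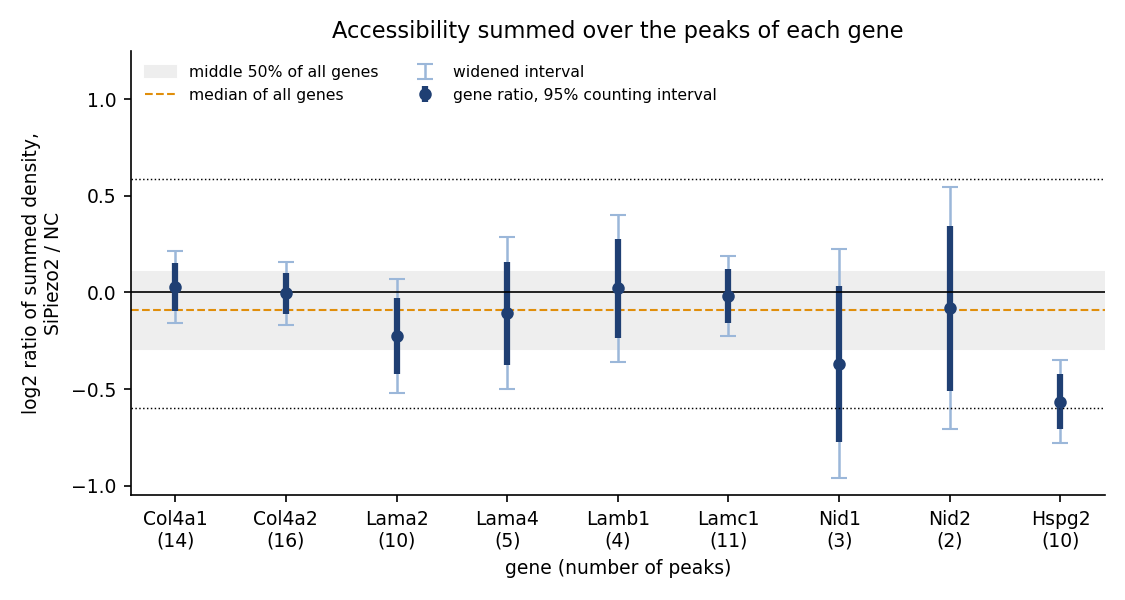
Log2 ratio of the density summed over the peaks of each gene, SiPiezo2 over NC, with the number of peaks in parentheses. Thick bars are 95% counting intervals, thin bars widened intervals, the grey band holds the middle 50% of all genes, and dotted lines mark 1.5-fold; *Hspg2* is the only gene whose widened interval stays below 0 (-0.78 to -0.35).

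Collagen IV gives a basement membrane its tensile strength. Summed over its peaks, the density in the 2 libraries differed by less than the counting error. *Col4a1* (ENSMUSG00000031502, chr8:11248423-11362826, minus strand) had 14 peaks, which together gave 545 in NC and 556 in SiPiezo2, a difference of 0.027 (-0.098 to 0.15). *Col4a2* (ENSMUSG00000031503, chr8:11362805-11499287, plus strand) had 16 peaks with 736 and 733, a difference of -0.0057 (-0.11 to 0.10). The locus as a whole went from 1281 to 1289, or 0.0083 (-0.073 to 0.089, widened -0.11 to 0.13).

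The single peaks of the locus were not all alike. At the shared start (chr8:11362559-11362937, assigned to *Col4a2*) the density was 53.9 in NC and 45.7 in SiPiezo2, or -0.23 (-0.67 to 0.19). In intron 3 of *Col4a2*, 27.73 kb from the start (chr8:11390332-11390745), it was 29.98 in NC and 56.4 in SiPiezo2. At 0.89 (0.43 to 1.35, widened 0.21 to 1.57) this was the highest value of the 75 peaks. A peak in intron 4 at 69.81 kb, the densest of the gene, had 81.4 and 100.4, or 0.30 (-0.012 to 0.61). An intron 16 peak at 99.15 kb had 47.1 and 58.2, with the same difference of 0.30 (-0.11 to 0.71). So the strongest *Col4a2* peak inside the gene was higher in SiPiezo2 and the start peak lower, both within counting error of no difference.

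Within *Col4a1* the 2 highest values lay in intron 2. The peak 52.81 kb from the start (chr8:11309828-11310203) had 42.8 in NC and 66.1 in SiPiezo2, or 0.61 (0.21 to 1.02, widened 0.022 to 1.21). That at 62.88 kb had 47.3 and 63.0, or 0.40 (0.0038 to 0.80), and the densest one, at 54.07 kb, 54.3 and 62.7, or 0.20 (-0.19 to 0.59). Intron 2 also held a peak below 0, at 48.77 kb with 47.9 and 39.5, or -0.27 (-0.74 to 0.18), and intron 1 one above 0, at 39.03 kb with 47.6 and 56.2, or 0.24 (-0.18 to 0.65). The windows of the peaks at 52.81 and 54.07 kb overlap, so these are not separate readings. Of the 7 peaks in intron 1, 5 were below 0, the lowest at 34.56 kb with 35.4 and 22.7, or -0.62 (-1.22 to -0.044). The peak annotated as promoter lies 101.44 kb inside the gene, at the start of a short internal transcript, with 29.0 in NC and 27.0 in SiPiezo2. Over both collagen IV genes 18 of 30 peaks were below 0, where 63.7% of all peaks were. Past 1.5-fold 1 of the 30 was lower and 2 were higher, against 13.5% and 3.21% of all peaks.

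The laminins form the sheet to which cells attach. Their 30 peaks summed to 960 in NC and 911 in SiPiezo2, a difference of -0.075 (-0.17 to 0.020, widened -0.22 to 0.069), with 20 peaks below 0 and, against the same shares of all peaks, 3 lower past 1.5-fold and 1 higher. With equal totals the sign turned, to 0.027. *Lama2* (ENSMUSG00000019899, chr10:26857281-27492839, minus strand) encodes the α2 chain, the main laminin α chain of muscle basement membranes, whose loss causes a congenital muscular dystrophy. It had 10 peaks over 636 kb, with 246 in NC and 210 in SiPiezo2. The difference was -0.23 (-0.42 to -0.030), and the widened interval (-0.52 to 0.069) took in 0, as did the counting interval around -0.079 with median-of-ratios scaling. At its start the density was 23.6 and 23.5. Its densest peak, in intron 41, had 48.1 and 35.5, or -0.43 (-0.92 to 0.043). The lowest, in intron 14 (chr10:27125788-27126125), had 17.1 and 9.14, or -0.83 (-1.80 to 0.063), and rested on 38 and 15 reads. The lower sum of *Lama2* thus came from peaks inside the gene and not from its start.

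*Lama4* (ENSMUSG00000019846, chr10:38841511-38986184) encodes the α4 chain of vessel basement membranes. Its 5 peaks summed to 130 and 121, or -0.11 (-0.37 to 0.16), which became 0.033 with median-of-ratios scaling and 0.070 with equal totals. Its start peak had 22.9 in NC and 31.8 in SiPiezo2, or 0.45 (-0.12 to 1.03), and its densest peak, in the first intron, 35.8 and 38.3. The other 3 peaks, between 74.76 and 101.63 kb from the start, were all below 0. *Lama5*, which encodes the α5 chain of epithelial and vessel basement membranes, had no peak to compare.

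*Lamb1* (ENSMUSG00000002900, chr12:31315233-31379492) encodes the β1 chain. It had 4 peaks and none within 3 kb of its start, with 132 in NC and 134 in SiPiezo2, or 0.020 (-0.24 to 0.28). The intron 20 peak (chr12:31352989-31353510) had 29.1 and 45.8, with 72 recovered reads in each library, or 0.64 (0.14 to 1.13, widened -0.081 to 1.35). The remaining 3 were below 0, between -0.36 and -0.075.

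*Lamc1* (ENSMUSG00000026478, chr1:153094668-153208532, minus strand) encodes the γ1 chain, which most laminin trimers contain. It had 11 peaks, and its sums were 452 in NC and 447 in SiPiezo2, or -0.018 (-0.16 to 0.12). This near-equality was made up of opposite parts. The promoter peak (chr1:153208383-153209279), the densest of the 75, had 82.3 in NC and 105 in SiPiezo2, or 0.34 (0.037 to 0.65, widened -0.11 to 0.80). A second peak 1.08 kb upstream had 56.0 and 79.3, or 0.49 (0.13 to 0.85, widened -0.036 to 1.03), and its window overlaps that of the first. In intron 1, at 67.04 and 65.7 kb, peaks with 43.4 against 24.9 and 35.9 against 22.1 gave -0.78 (-1.35 to -0.24) and -0.68 (-1.29 to -0.095), again with overlapping windows. At 24.16 kb the density was 53.3 and 36.3, or -0.54 (-1.02 to -0.082). The density at the *Lamc1* start was thus higher in SiPiezo2 and that at 6 of the 8 peaks in intron 1 lower. Both widened intervals at the start took in 0. So did those of the intron 1 peaks at 67.04 kb (-1.59 to 0.024), 65.7 kb (-1.54 to 0.18) and 24.16 kb (-1.23 to 0.14). Under a scaling of the recovered reads by the median ratio the promoter value was 0.17 in place of 0.34.

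The nidogens bridge laminin and collagen IV. Their 5 peaks were the thinnest data among the members, with 115 in NC and 97.8 in SiPiezo2 and a difference of -0.24 (-0.53 to 0.051), or -0.057 with median-of-ratios scaling. *Nid1* (ENSMUSG00000005397, chr13:13612136-13686854) had 3 peaks, none within 3 kb of its start and each called in NC only. They summed to 64.6 and 49.8, or -0.37 (-0.78 to 0.031), with the densest at 24.2 and 19.8. The difference was -0.16 with median-of-ratios scaling and -0.12 with equal totals. *Nid2* (ENSMUSG00000021806, chr14:19801333-19861855) had 2 peaks with 50.9 and 48.0 in sum, or -0.082 (-0.51 to 0.34), which became 0.057 and 0.093 under these scalings. Its promoter peak had 33.5 in NC and 30.4 in SiPiezo2, or -0.14 (-0.68 to 0.40), and its intron 8 peak 17.4 and 17.7. At 150 and 81 reads for *Nid1* and 122 and 77 for *Nid2*, the intervals of both genes were wide and took in 0. With unassigned peaks nearest to each gene also counted, a choice made after the data had been seen, *Nid1* was at -0.33 (-0.57 to -0.096). *Nid2* was then at -0.43 (-0.74 to -0.12).

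*Hspg2* (ENSMUSG00000028763, chr4:137196080-137297941, plus strand) encodes perlecan, a large proteoglycan that binds growth factors through its heparan sulfate chains. Its 10 peaks summed to 549 in NC and 371 in SiPiezo2, a ratio of 0.676, just inside the 1.5-fold limit. The difference was -0.57 (-0.71 to -0.42, widened -0.78 to -0.35). Of all genes 7.25% had a lower value, and among the 605 genes with 10 or more peaks 1.65% did. The difference between *Hspg2* and the other 8 genes pooled was -0.53 (-0.68 to -0.38, widened -0.76 to -0.30). *Hspg2* was set against the rest because it was the lowest of the 9 genes, so this contrast describes that choice and its intervals do not allow for it. Leaving out any 1 peak gave between -0.67 and -0.51.

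The lower values ran over most of the 5′ part of *Hspg2*. Its first peak, in intron 1 at 5.23 kb from the start (chr4:137200978-137201646), was its densest, with 85.8 in NC and 58.5 in SiPiezo2, or -0.55 (-0.92 to -0.18). Further into intron 1, at 26.54 kb (chr4:137222374-137222871), the density was 76.8 and 41.0, or -0.89 (-1.32 to -0.47, widened -1.51 to -0.26). Next to it, at 27.25 kb, 72.8 and 35.5 gave -1.02 (-1.48 to -0.57, widened -1.68 to -0.35), the lowest value of the 75 peaks and the only one past 2-fold. The windows of this pair overlap and share reads.

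In intron 6, at 40.28 and 41.01 kb, another pair with overlapping windows had 45.0 against 24.9 and 46.8 against 26.9, or -0.83 (-1.39 to -0.29) and -0.78 (-1.32 to -0.25). A peak over exon 10 at 43.16 kb had 45.5 and 28.8, or -0.64 (-1.17 to -0.13). Between these regions, however, a peak over exon 2 at 32.35 kb was not lower, with 47.6 in NC and 55.6 in SiPiezo2, or 0.22 (-0.20 to 0.63). The last peak, in intron 49 at 71.75 kb, had 24.3 and 25.5, or 0.065. Where only the 8 peaks with separate windows were used, so that no read counted more than once, the gene value was -0.48 (-0.64 to -0.32). With the 4 peaks called in both libraries it was -0.47 (-0.68 to -0.27).

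**Figure D3:**
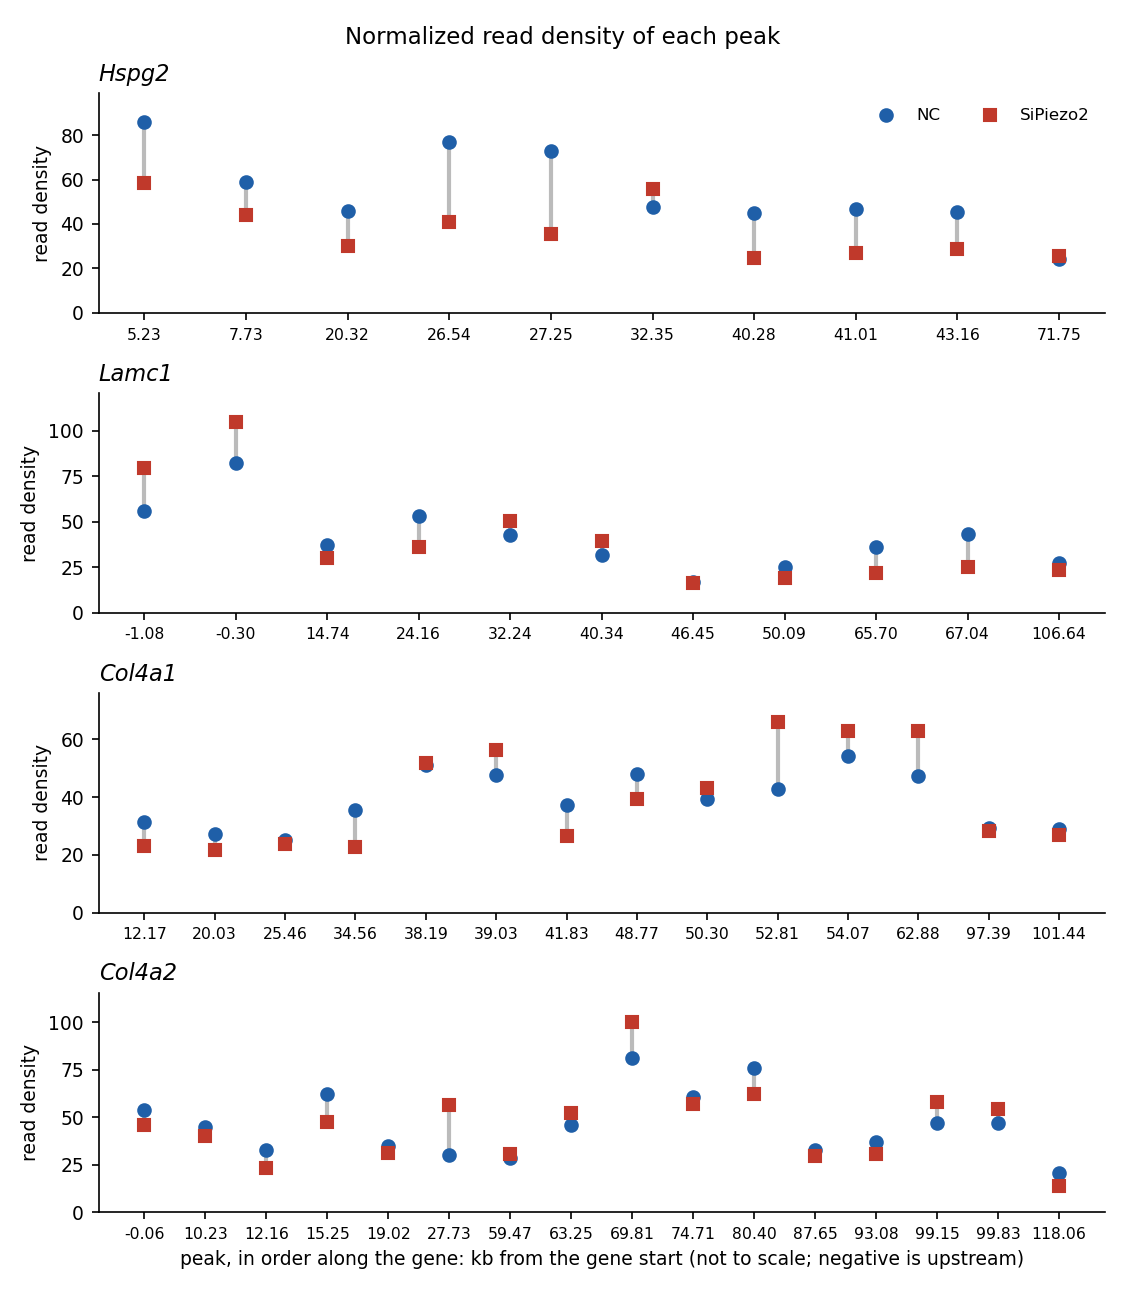
Normalized read density (y axis) of each peak of *Hspg2*, *Lamc1*, *Col4a1* and *Col4a2* in NC (blue circles) and SiPiezo2 (red squares), in order along the gene with the distance from the gene start in kb on the x axis. In *Hspg2* 8 of 10 peaks have the red square below the blue circle, in *Lamc1* the squares are above at the start and mostly below within the gene, and the collagen IV genes show both directions.

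By position, the 23 peaks in first introns had a median of -0.42, against -0.15 for all 9482 first-intron peaks of the table, and 17 of them were below 0. All 5 first-intron peaks of *Hspg2* were below 0, and without them the median of the other 18 was -0.31. Most of these 18 were of *Lamc1* (8, median -0.34) and *Col4a1* (7, -0.31), some with overlapping windows. The 2 of *Lama2* had a median of -0.062 and the 1 of *Lama4* was at 0.094. The 43 peaks in later introns had a median of -0.19, near the -0.17 of all such peaks. Within 1 kb of the gene starts the values ran from -0.23 at the shared *Col4a1* and *Col4a2* start to 0.45 at that of *Lama4*. The median of all 14801 peaks within 1 kb of a start site was -0.042.

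By the library in which a peak had been called, 39 of the 75 (52%) were called in NC only, 34 (45.3%) in both and 2 (2.67%) in SiPiezo2 only, where all peaks gave 64.0%, 33.8% and 2.16%. The median was -0.38 for those called in NC only, 33 of which were below 0, and 0.094 for those called in both, of which 18 were above 0 and 16 below. Calling a peak uses its reads, so these differences are a description. All peaks of the table showed the same order, with -0.23 and 0.0025. In *Lamc1* the medians were -0.54 for 5 peaks called in NC only and 0.27 for 6 called in both, and in *Hspg2* they were -0.68 and -0.59, low in each class.

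The other genes of the pathway were examined as lists. Of 30 other basement membrane genes, all had a peak, and 22 were below 0 with a median of -0.15. Past 1.5-fold, *Col4a4*, a collagen IV chain of kidney and ear basement membranes, was lower, with 145 in NC and 93.5 in SiPiezo2, or -0.63 (-0.92 to -0.35), a value no longer past 1.5-fold under either scaling of the recovered reads. *Lama1*, an embryonic laminin α chain, was higher at a single peak of 39 and 46 reads, with 16.7 and 28.2, or 0.72 (0.075 to 1.38). The counting interval was below 0 for 9 of the 30 and above 0 for 1, against 15.2% and 4.37% of all genes.

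All 18 receptor genes, integrins, dystroglycan with its partners and discoidin domain receptors, had a peak. Their median was -0.14, 14 of 18 were below 0, where 62.6% of all genes were, and none was past 1.5-fold. The interval was below 0 for 5 of the 18, against 15.2% of all genes, and above 0 for 0, against 4.37%. Of 22 genes for collagen biosynthesis and matrix remodelling, 19 had a peak. Their median was -0.14, 10 were below 0, and intervals were below 0 for 7 and above 0 for 2. *P4ha3*, a collagen prolyl hydroxylase subunit, was lower with 203 in NC and 126 in SiPiezo2, or -0.68 (-0.93 to -0.44), which was not past 1.5-fold with equal totals. *Loxl2*, a lysyl oxidase that cross-links collagen IV, was higher with 86.7 and 145, or 0.74 (0.46 to 1.01). The shares past 1.5-fold in these lists, 1 of 30, 0 of 18 and 1 of 19 in the lower direction, were below or near the 6.21% of all genes, and in the higher direction 1 of 30, 0 of 18 and 1 of 19 stood against 1.54%. The shares with an interval below 0, 9 of 30, 5 of 18 and 7 of 19, were above the 15.2% of all genes. The lists held 129, 90 and 74 peaks, more per gene than the 43864 assigned peaks of all 16934 genes, and the part of this in the intervals was not tested.

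**Figure D4:**
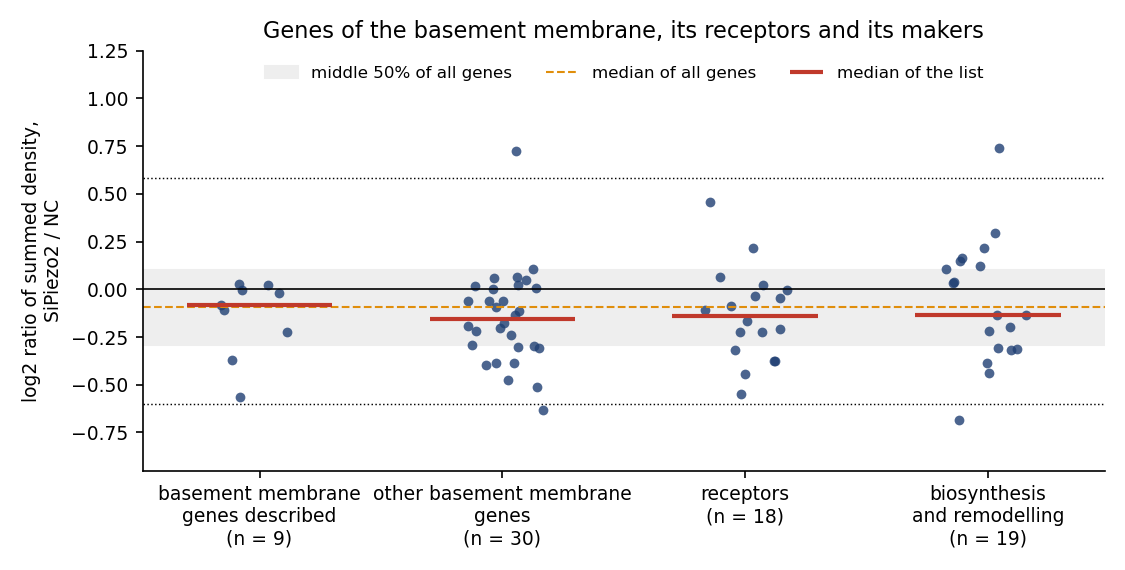
Each point is the log2 ratio of summed density, SiPiezo2 over NC, of 1 gene with a peak, for the basement membrane genes described (9 genes), the other basement membrane genes (30), their receptors (18) and genes of biosynthesis and remodelling (19). The red line is the median of each list, the grey band the middle 50% of all genes and the dotted lines 1.5-fold; the medians of the lists lie between -0.15 and -0.082, inside the band.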

How the data were processed

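ATAC-seq was analysed for 1 library of each condition. Conditions were taken from the labels. The description of the series names a Tet3 knockout by Cre, and the methods minced tissue and a kit that the labels do not name; neither point could be settled. Per the labels' processing notes, BWA 0.7.12 and mm10 were used, but gene coordinates in the table are those of GRCm39. No sequence was therefore read by the table's coordinates.

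The authors deposited a signal column of normalized read density per library, scaled by a line fitted to the log2 ratio against mean log2 density. Columns holding their own log2 ratios and p-values were not used.

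The reads in each 2000 bp window were worked back from the densities with an intercept of -0.248 and a slope of 0.174. They were whole within 0.05 for 100% of 63316 peaks. From each, 1 was subtracted, a count that such normalization adds, although no source used here states it. Intervals were computed from these reads, and widened by the variance of 20850 peaks called in both libraries with 45 to 376 reads. Gene values are sums over assigned peaks. No test was run.

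The basement membrane genes, the pathway and marker lists and the motifs were chosen with earlier results of these data known. Named were all members, their promoter peaks and strongest other peak, the 8 lowest and 8 highest peaks with 40 or more reads, and list genes past 1.5-fold. The recovery was tested on simulated data. Alternatives were a pseudocount of 0.1, median-of-ratios and equal-total scaling, a 2-fold limit and subsets of peaks. Scripts ran under Python 3.11.15 with scipy 1.17.1, pandas 2.3.3 and numpy 2.4.6, and matplotlib 3.10.9 drew the figures.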

Additional observations from a re-analysis of the deposited data

How the results depend on the processing

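No paired analysis was possible because each condition had 1 library, and for the same reason no replicate could be left out. *Hspg2* was between -0.57 and -0.47 under the alternatives that gave it a value. *Lama2* was between -0.43 and -0.042, and its counting interval took in 0 under both scalings, with its strongest peak only and with peaks called in both libraries. *Col4a1*, *Col4a2*, *Lama4*, *Lamc1* and *Nid2* had values of both signs, *Nid1* was between -0.37 and -0.12 and *Lamb1* between 0.020 and 0.64. Promoter peaks alone gave no value for *Lama2*, *Lama4*, *Lamb1*, *Nid1* and *Hspg2*, nor peaks called in both libraries for *Nid1*. Median-of-ratios scaling moved the median of all genes from -0.093 to 0.0072 and equal totals to 0.043, and the difference of a gene is read against these.

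The median of the basement membrane genes (-0.082) became -0.019 with median-of-ratios scaling, 0.018 with equal totals, 0.094 with the strongest peak of each gene only and -0.023 with peaks called in both libraries. Their median over peaks (-0.21) became -0.10, against 0 for all peaks, with median-of-ratios scaling, -0.070 with equal totals, -0.15 in the denser 50% of peaks and 0.094 with peaks called in both. Of the 9 lower and 3 higher peaks, 1 and 0 were past 2-fold (2.76% and 0.504% of all peaks). Of the 34 peaks called in both, 2 were lower and 3 higher (5.36% and 4.41% of all such peaks). Without *Hspg2*, left out after the data had been seen, 4 of 65 peaks were lower and 3 higher (13.5% and 3.21% of all peaks without it). Median-of-ratios scaling gave 6 lower and 2 higher peaks (7.60% and 6.84% of all peaks), and equal totals 6 and 4 (6.63% and 8.10%).

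The list medians with median-of-ratios scaling and equal totals were -0.031 and 0.0062 for other basement membrane genes. They were -0.083 and -0.046 for receptors and -0.057 and -0.020 for biosynthesis and remodelling. *Col4a4* was no longer past 1.5-fold, leaving 0 lower genes, under both scalings, and *P4ha3*, leaving 0, with equal totals. Under both, 1 receptor gene was higher past 1.5-fold. The depth of 48 reads at a median SiPiezo2 peak limits single peaks. The causes of these shifts were not tested.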

Other observations

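Outside the assigned peaks, 17 peaks had a transcript start of a member as the nearest start in the table, 14 of them distal intergenic. The 2 at *Col4a2* and the 4 at *Nid1* lay beyond the 3′ end of the gene, 137.51 to 144.66 kb and 79.22 to 111.47 kb from the gene start. These peaks were added after the data had been seen. Of these, 15 were below 0 (63.7% of all peaks), 7 were lower past 1.5-fold (13.5%) and 0 were higher (3.21%). The median was -0.38, against -0.18 for all 19430 distal intergenic peaks, and pooled they gave -0.45 (95% counting interval -0.59 to -0.32). Of the 17, 13 were called in NC only and 4 in both, where 64.0% and 33.8% of all peaks were. Calling uses the reads of a peak, and peaks called in NC only had a median of -0.23 over the whole table.

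The lowest lay 36.13 kb upstream of the *Lama2* gene start, in an intron of *Gm30165*, with a density of 48.8 in NC and 21.1 in SiPiezo2, or -1.17 (-1.77 to -0.61). Upstream of *Nid2*, at 4.81 and 13.5 kb, 29.5 against 16.8 and 30.7 against 17.5 both gave -0.78. The highest of these lay 3.17 kb upstream of *Lamb1*, with 23.0 and 28.6, or 0.30 (-0.30 to 0.89). The 3 peaks nearest to *Lama5*, which had no assigned peak, lay 2.16, 2.92 and 7.45 kb upstream of its nearest transcript start, with 40.7 against 25.4, 37.4 against 28.6 and 20.5 against 20.3.

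With these peaks counted to their nearest member, the gene difference of *Nid2* was -0.43 (-0.74 to -0.12) in place of -0.082, that of *Lama4* -0.26 (-0.48 to -0.035) in place of -0.11, and that of *Lama2* -0.33 (-0.50 to -0.15) in place of -0.23. *Nid1* was at -0.33 (-0.57 to -0.096) in place of -0.37. *Col4a2*, *Lamb1* and *Lamc1* were at -0.055, 0.067 and -0.031, and *Hspg2* and *Col4a1* had no such peak.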
